A study of Rattus norvegicus with 24 samples.

Results

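Gene expression after nerve injury was compared with sham surgery in adult rats, using 12 of the 24 arrays of the study. The arrays were chosen by their labels for age and operation, 6 from injured adults and 6 from sham-operated adults. The other 12 arrays came from neonates labelled P10 (postnatal day 10), 6 sham and 6 at 7 days after SNI, and served here only for the shared estimate of spread and for tests of whether an effect differed between the ages. All adults were Sprague-Dawley rats of 8 to 12 weeks, and each array measured 5 ug of total RNA from the dorsal horn of the spinal cord on the operated side.

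In the injured group, operated under isoflurane, the sciatic nerve lost its tibial and common peroneal branches, which were tied and cut, and kept its sural branch (spared nerve injury, SNI). The label of this group gives 7 days after injury. In the sham group, under the same anaesthetic, the sciatic nerve was exposed and not tied, and the label gives no time. Arrays of a group are labelled as biological replicates. Values are log2 expression per probe set, a group of short probes for 1 transcript, and their precision is limited by how many arrays there are.

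The dorsal horn receives the sensory fibres of the body and relays their signals through local excitatory and inhibitory neurons. Cutting a peripheral nerve is known to make microglia, the resident immune cells of the spinal cord, multiply and change shape near the endings of the cut fibres, and astrocytes, the glia that take up transmitter and support synapses, follow. The comparison asked which transcripts differed after injury, and the account here gives most room to modest changes, to genes that fell and to bright genes of neurons and glia.

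The arrays carried the markers of the labelled tissue. In adult sham the median was 14.97 log2 for Mbp, a myelin protein, 14.25 for Gfap, the intermediate filament of astrocytes, 13.49 for the synaptic protein Snap25 and 13.21 for Penk, the enkephalin precursor of dorsal horn neurons. The medians of the 12 adult arrays lay between 5.57 and 5.67 log2, and the lowest correlation between any pair of them was 0.990. Of 23 genes of primary afferents and sensory ganglia, 10, among them the ganglion markers Scn10a, Trpv1 and Avil, never rose above 3.84 log2, the 40th percentile of all values and the filter level here. The other 13 did so on at least 1 adult array, and the list's summed level was 12.86 to 13.33 log2 in sham and 12.82 to 13.45 log2 after SNI. Its member Reg3b, a secreted lectin, was at least 3.81-fold higher after SNI by the group mean (adjusted p = 0.00479), with all sham arrays below the filter level. SNI 1, at 2.85 log2, also lay below that level, and the other SNI arrays ranged from 4.90 to 7.27 log2. Among adult arrays only SNI ones could admit Reg3b to the test, so its call is not independent of the filter. Levels that never passed the filter were also found for 13 of 15 lymphocyte genes on the array and for the microglial marker Itgam, while Aif1 and Csf1r were measured. These are bulk samples, in which a change in the number of cells of a type and a change in RNA per cell cannot be told apart.

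Of 9638 probe sets tested, 193 changed at an adjusted p under 0.05 (2.00% of those tested; limma with Benjamini-Hochberg adjustment). They divided into 188 higher (1.95%) and 5 lower (0.0519%). A change under 2-fold was called in 108 of them (1.12%), of which 104 were higher (1.08%). Counted once per gene by the brightest probe set, 139 of 7006 genes rose (1.98%) and 2 fell (0.0285%), and 72 of these 141 genes changed by less than 2-fold. A fit that added the replicate number as a block within each age compared same-numbered sham and SNI arrays. In it 291 probe sets changed (3.02%), 264 higher (2.74%) and 27 lower (0.280%). Of these, 188 were among the 193. At an unadjusted p under 0.05, 481 probe sets were higher (4.99%) and 266 lower (2.76%).

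Calls became rarer with brightness. Below a mean of 6 log2, 3.298% of probe sets were called, and from 12 log2 upward 0.974%. The filter itself favours risers in the dim class. A probe set needed only 6 arrays above the filter level, which the 6 adult SNI arrays alone could supply. For Cxcl13, 0 sham and 6 SNI adult arrays lay above that level. How much of the trend this explains was not tested. The median width of a 95% confidence interval to either side of the difference was 0.292 log2 in the dim class and 0.193 log2 in the bright one. At 10 log2 or more, 18 of 1640 probe sets changed (1.10%), and each of these 18 was higher. Most genes lay slightly below 0: the difference was negative in 60.7% of genes, whatever its p, with a median of -0.032 log2.

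**Figure D1:**
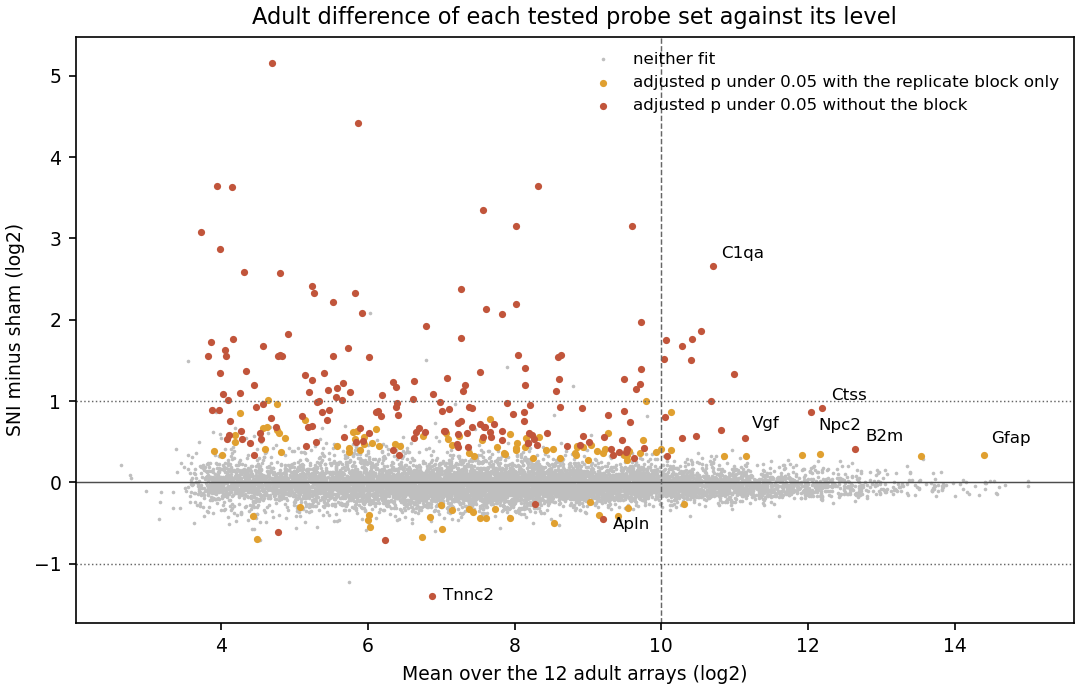
Difference between SNI and sham (log2) against the mean of the 12 adult arrays (log2) for the 9638 tested probe sets. Red points passed the test, yellow points passed only with the replicate block, dotted lines mark a 2-fold change and the dashed line a mean of 10 log2. The lower side holds 5 red points, and none of them lies to the right of the dashed line.

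Modest changes, of under 2-fold, were called in 72 genes. Of the 72, 71 rose and 1 fell, and in 52 of them the 6 SNI and 6 sham arrays did not overlap, a pattern seen in 1.70% of all tested probe sets upward and 0.0830% downward. The call and the overlap rest on the same values, so the 52 are no separate support. Among the 188 probe sets called higher at any size, 147 did not overlap. The differences of the 72 genes ran from 0.325 to 0.987 log2 in size. Of these genes 20 belonged to any of the 39 lists described further on, as did 711 of the 7006 genes tested.

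Skap2, an adaptor protein of Src family kinases in adhesion signalling of blood cells, had the smallest p among them. Its sham arrays ranged from 7.13 to 7.60 log2 (median 7.47) and its SNI arrays from 8.21 to 8.55 log2 (median 8.41). The groups did not overlap, and the rise was 0.98 log2 (SE 0.12, adjusted p = 4.58e-06).

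Regulators of actin and of transcription were among the next genes. Ssh2, a phosphatase that activates the actin-severing protein cofilin, ranged from 9.10 to 9.44 log2 in sham (median 9.15) and from 9.65 to 9.80 log2 after SNI (median 9.72), a rise of 0.52 log2 (SE 0.08, adjusted p = 6.31e-05). Mef2c, a transcription factor of neurons, muscle and microglia, ranged from 6.66 to 6.81 log2 in sham (median 6.72) and from 7.19 to 7.52 log2 after SNI (median 7.35), a rise of 0.63 log2 (SE 0.09, adjusted p = 3.97e-05). In both genes every SNI array exceeded every sham array, and the SD within a group was at most 0.134 log2. The second probe set of Mef2c rose by 0.81 log2 (adjusted p = 0.00262).

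Clic1, a chloride intracellular channel protein, rose by 0.93 log2 (SE 0.13, adjusted p = 3.42e-05), from a sham median of 8.17 to an SNI median of 9.14. Coro1a, an actin-binding protein of leukocytes, rose by 0.92 log2 (SE 0.14, adjusted p = 8.53e-05). Zfp36l2, an RNA-binding protein that promotes decay of messenger RNA, rose by 0.87 log2 (adjusted p = 2.14e-04). None of these genes overlapped between the groups. Zfp36l1, its paralogue, which was named after its values were seen, rose by 0.80 log2 (adjusted p = 0.00118).

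A receptor and a ligand of 1 receptor family both rose, and whether this ligand acts on this receptor was not tested. Axl, a receptor tyrosine kinase by which phagocytes recognise dying cells, ranged from 7.30 to 8.05 log2 in sham (median 7.51) and from 8.23 to 8.73 log2 after SNI (median 8.34), a rise of 0.84 log2 (SE 0.13, adjusted p = 2.15e-04). Pros1, protein S, a ligand of this receptor family, ranged from 6.75 to 7.03 log2 in sham (median 6.88) and from 7.32 to 8.05 log2 after SNI (median 7.60), a rise of 0.75 log2 (SE 0.12, adjusted p = 2.43e-04). Every SNI array was above every sham array in both. Mertk, another receptor of the family, named after its values were seen, differed by 0.54 log2 with an adjusted p of 0.0495. Its adjusted p lay above 0.05 without any one of sham 1, 2, 4, 5 and 6 or SNI 1, 3 and 6, and reached 0.150.

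Dimmer genes in this class included Cxcl16, a chemokine that also exists in membrane-bound form, and Irgm2, an interferon-induced GTPase. Cxcl16 ranged from 3.93 to 4.18 log2 in sham and from 4.24 to 5.39 log2 after SNI, close to the filter level, and rose by 0.92 log2 (adjusted p = 1.33e-04). Irgm2 rose by 0.89 log2 (SE 0.13, adjusted p = 6.21e-05), with sham arrays from 4.93 to 5.16 log2 and SNI arrays from 5.58 to 6.48 log2. The groups were apart in both genes.

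Lysosomal genes joined modest size to high level. Npc2, which hands cholesterol out of lysosomes, ranged from 11.31 to 11.90 log2 in sham (median 11.58) and from 12.13 to 12.65 log2 after SNI (median 12.52), a rise of 0.86 log2 (SE 0.11, adjusted p = 7.71e-06). Ctss, the lysosomal protease cathepsin S, which trims the invariant chain of MHC class II molecules, ranged from 11.35 to 12.02 log2 in sham (median 11.72) and from 12.44 to 12.97 log2 after SNI (median 12.63). Both genes had all 6 SNI arrays above all sham arrays. Ctss was the only one of the 72 modest genes whose change was also called in neonates (0.58 log2, adjusted p = 0.0481).

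Short sequence motifs were looked up in the 250 bases before the RefSeq start (build GRCr8) of the genes called higher, because some of the bright risers carried matches. The 9 motifs were searched on both strands after the calls were known, and a match is only a match of letters. The set held 146 genes with any probe set called higher, of which 121 had a promoter among the 27457 of that length. The 4 promoters shown belong to 4 bright genes of the text, with matches in capitals. In Ctss (chr2:185775146-185775395, plus strand) the capitals mark an interferon response motif 36 to 27 bases before the start and, read on the opposite strand, the PU.1 motif 17 to 10 bases before it. In B2m (chr3:129549080-129549329, plus strand) and Grn (chr10:87887584-87887833, plus strand) they mark the interferon response motif. In Vgf (chr12:25277021-25277270, minus strand) they mark the cAMP response motif, 90 to 83 bases before the start.
Ctss: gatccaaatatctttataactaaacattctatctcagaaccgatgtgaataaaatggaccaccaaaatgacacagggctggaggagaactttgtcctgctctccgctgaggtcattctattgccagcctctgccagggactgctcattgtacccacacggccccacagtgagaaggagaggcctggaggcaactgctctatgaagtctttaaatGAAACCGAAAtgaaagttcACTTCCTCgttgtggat
B2m: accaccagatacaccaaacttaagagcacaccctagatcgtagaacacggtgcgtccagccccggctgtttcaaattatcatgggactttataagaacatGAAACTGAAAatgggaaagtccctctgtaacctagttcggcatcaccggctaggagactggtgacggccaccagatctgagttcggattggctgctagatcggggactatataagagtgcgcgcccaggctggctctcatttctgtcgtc
Grn: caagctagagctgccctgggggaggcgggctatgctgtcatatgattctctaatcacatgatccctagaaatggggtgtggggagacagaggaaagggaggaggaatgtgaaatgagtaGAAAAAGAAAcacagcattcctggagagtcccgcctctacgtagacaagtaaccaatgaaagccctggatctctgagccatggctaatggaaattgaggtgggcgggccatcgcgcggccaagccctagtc
Vgf: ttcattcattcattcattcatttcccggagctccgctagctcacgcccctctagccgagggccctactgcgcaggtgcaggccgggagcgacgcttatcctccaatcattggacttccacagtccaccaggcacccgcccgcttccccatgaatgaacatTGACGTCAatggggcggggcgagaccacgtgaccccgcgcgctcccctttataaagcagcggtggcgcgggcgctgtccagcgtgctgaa

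The interferon response motif, GAAA repeated after any 2 bases, occurred in 14 of the 121 promoters (11.57%) and in 3.29% of all promoters. The motif GAGGAAGT of PU.1, a myeloid transcription factor, occurred in 7 (5.79%) against 2.04% of all, and it contains the shorter ETS core GGAAGT, found in 25.62% against 19.5%. The cAMP response motif TGACGTCA occurred in 2 promoters, of Vgf and Rap1b (1.65%), against 1.7% of all. The purine-rich motif AGAGGAAG, which overlaps that of PU.1, was found in 6.61% against 3.55%, and the kappa B motif GGGNNTTCC in 7.44% against 5.16%. The hypoxia motif ACGTG was found in 14.05% against 16.95%, the AP-1 motif TGANTCA in 2.48% against 6.36%, and the MEF2 motif, CTA and TAG with 4 bases between them, in 1.65% against 3.43%. No test was made of these shares. All promoters include those of genes that were not tested on the arrays, so the 2 sets differ by more than the call. The search began because some risers carried matches, which favours higher shares among the risers.

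Among the bright genes that rose were those of lysosomal proteins. Lgmn, a lysosomal protease that cuts after asparagine, ranged from 9.93 to 10.44 log2 in sham (median 10.17) and from 10.59 to 10.94 log2 after SNI (median 10.71), a rise of 0.57 log2 (SE 0.10, adjusted p = 0.00118). Grn, progranulin, a growth factor precursor that also acts in lysosomes, ranged from 9.34 to 10.05 log2 in sham (median 9.64) and from 10.80 to 11.68 log2 after SNI (median 11.09), a rise of 1.51 log2 (SE 0.13, adjusted p = 2.60e-08). Neither gene overlapped between the groups.

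Larger rises among the bright genes came from Anxa3, a membrane-binding annexin, by 1.76 log2 (SE 0.13, adjusted p = 6.58e-10) and from Tmem176b, a transmembrane protein of antigen-presenting cells, by 1.33 log2 (SE 0.13, adjusted p = 7.45e-08). Fcer1g, the signalling chain shared by several immunoglobulin receptors, rose by 1.86 log2 (adjusted p = 3.16e-07). Lyz2, lysozyme, rose by 1.00 log2 (SE 0.21, adjusted p = 0.00597), and 5 of its 6 SNI arrays lay above all sham arrays.

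B2m, the light chain of MHC class I molecules, was the brightest gene called. It ranged from 12.15 to 12.93 log2 in sham (median 12.39) and from 12.69 to 13.01 log2 after SNI (median 12.86), and only 2 of the 6 SNI arrays lay above all sham arrays. The difference was 0.41 log2 (SE 0.10, adjusted p = 0.0251), and SNI was higher in all 6 same-numbered pairs. A second probe set differed by 0.54 log2 (adjusted p = 0.0333). The call was lost without any one of sham 2, 3, 5 and 6 or SNI 1, 4 and 6 (adjusted p from 0.0550 to 0.0862) and in a fit of the adult arrays alone (adjusted p = 0.193).

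Vgf, a neuropeptide precursor that neurons make and release, was a neuronal gene among the bright risers. Its sham arrays ranged from 10.66 to 11.21 log2 (median 10.84) and its SNI arrays from 11.12 to 11.56 log2 (median 11.48). The rise was 0.54 log2 (SE 0.12, adjusted p = 0.0131), 5 of 6 SNI arrays lay above all sham arrays, and the same-numbered differences ran from 0.265 to 0.816 log2. In neonates the difference was -0.12 log2 (adjusted p rounded to 1), and the difference between the ages had an adjusted p of 0.243.

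Gsta1, a glutathione transferase with near-identical relatives that a probe set may not separate, ranged from 10.20 to 10.78 log2 in sham (median 10.49) and from 10.89 to 11.44 log2 after SNI (median 11.14). The groups did not overlap and the rise was 0.64 log2 (SE 0.16, adjusted p = 0.0333, and 0.00114 with the replicate block). Without any one of sham 2, 4, 5 and 6 or SNI 1, 3 and 4 the adjusted p lay between 0.0607 and 0.105, and with no filter on low values it was 0.0684.

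**Figure D2:**
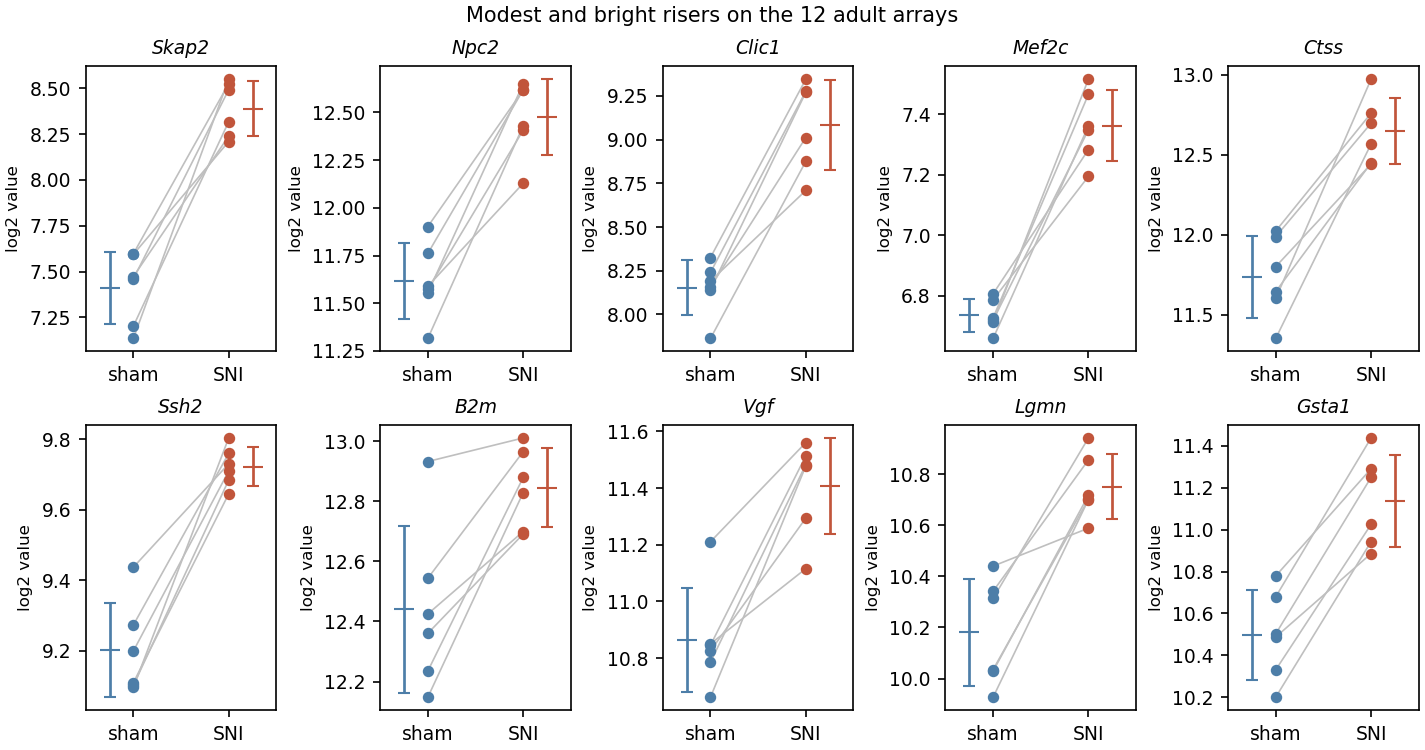
Log2 values of 10 genes with modest or bright rises on the 6 sham (blue) and 6 SNI (red) adult arrays, with grey lines joining same-numbered arrays and bars showing mean ± SD (n = 6). The groups lie apart except in B2m, where the groups overlap, and in Vgf, where sham 1 at 11.21 log2 lies above the lowest SNI array at 11.12.

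Lower transcripts were few. Tnnc2, fast skeletal muscle troponin C, showed the only fall of more than 2-fold: its sham arrays ranged from 7.00 to 7.84 log2 (median 7.63) and its SNI arrays from 5.63 to 7.18 log2 (median 5.90). The fall was -1.40 log2 (SE 0.31, adjusted p = 0.00874, and 6.32e-06 with the replicate block). In 5 of 6 cases the SNI array lay below all sham arrays, and each same-numbered difference was negative, from -1.75 to -0.66 log2. The other muscle genes were mostly undetected. Of 32 skeletal muscle genes on the array, 26 stayed below the filter level on every adult array, including Tnnt3, Acta1, Myl11 and Ckm. The summed level of the list was 12.14 to 12.98 log2 in sham and 11.76 to 12.91 log2 after SNI, and of its 5 tested members Tnnc2 alone was called.

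Apln, the precursor of the peptide apelin, which vascular cells and neurons release, was lower on all 6 SNI arrays, which ranged from 8.81 to 9.17 log2 (median 8.96), than on any sham array, which ranged from 9.21 to 9.73 log2 (median 9.38). The fall was -0.45 log2 (SE 0.10, adjusted p = 0.0163, and 0.00319 with the block), but without sham 4 or SNI 6 the adjusted p was 0.0566 and 0.0556. Its second, dimmer probe set differed by -0.57 log2 with an adjusted p of 0.210, which became 0.0451 with the block. Aplnr, the apelin receptor, was never above the filter level.

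Cdh22, a cadherin of brain and pituitary, fell in its dimmer probe set, which ranged from 4.86 to 5.30 log2 in sham and from 3.72 to 4.86 log2 after SNI (difference -0.62 log2, SE 0.15, adjusted p = 0.0248). The brighter probe set of this gene, at a mean of 11.72 log2, differed by -0.06 log2 (adjusted p = 0.989). The call of the dimmer one was lost with the replicate block (adjusted p = 0.0549), with the adult arrays alone (0.140), with no filter (0.0515), and without SNI 4 (0.0786), sham 4 (0.0703) or sham 5 (0.0708). The other 2 lower probe sets have no gene name, 1389754_at (-0.71 log2, adjusted p = 0.0415) and 1389794_at (-0.27 log2, adjusted p = 0.0296). Without single arrays, 8 for 1389754_at (sham 2 to 6 and SNI 1, 5 and 6) and 7 for 1389794_at (sham 1 to 4 and 6, and SNI 2 and 5), they had adjusted p of up to 0.122 and 0.0864. Probe set 1389754_at was also lost with no filter (0.0874) and in the adult arrays alone (0.0713), and 1389794_at in the adult arrays alone (0.116) and with array weights (0.0532).

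With the replicate block, 27 probe sets were lower (0.280% of those tested), 4 of them shared with the fit without it, and 26 of the 27 differed by less than 2-fold. At the level of genes 187 of 7006 rose in that fit (2.67%) and 14 fell (0.200%). The other 12 of these 14 genes were not called by the fit without the block on all arrays. Bsn, bassoon, a scaffold of the presynaptic active zone, ranged from 9.02 to 9.24 log2 in sham (median 9.16) and from 8.73 to 9.09 log2 after SNI (median 8.89), a difference of -0.25 log2 (SE 0.07, adjusted p = 0.0908 without and 0.0353 with the block). Lin7b, a scaffold of synapses and epithelial junctions, differed by -0.44 log2 (0.194 without, 0.0359 with). Sptbn4, the beta IV spectrin of axon initial segments and nodes of Ranvier, differed by -0.44 log2 (0.0761 without, 0.0096 with). In each of these 3 genes all 6 same-numbered differences were negative, and the groups overlapped. Bsn and Sptbn4 were also called without the block once SNI 1 was left out (adjusted p = 0.0353 and 0.0387) and with array weights (0.0405 and 0.0321), and Bsn with no filter (0.0410). With any other single adult array left out neither was called without the block, and the adjusted p of Bsn reached 0.250. Bsn was the 1 called member of 33 genes of synaptic vesicles and release, whose median was -0.08 log2.

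Rnf112, a RING finger protein enriched in brain, showed most clearly what the block does. Its sham arrays ranged from 8.99 to 9.61 log2 and its SNI arrays from 8.62 to 9.34 log2, with 4 of the 6 SNI arrays below all sham arrays. The same-numbered differences were all between -0.581 and -0.268 log2, and the adjusted p was 0.201 without and 0.00319 with the block. Pomgnt2, a glycosyltransferase that modifies dystroglycan, differed by -0.41 log2 in the same manner (0.0931 without, 0.00666 with).

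Further genes were lower with the block. Tril, an accessory protein of Toll-like receptor 4, was the brightest, with a sham median of 10.42 and an SNI median of 10.16 log2, and differed by -0.27 log2 (adjusted p = 0.0938 without, 0.0295 with the block, and 0.0481 without the block when SNI 4 was left out). Lama4, a laminin chain of vascular basement membrane, differed by -0.69 log2 near the filter level (0.152 without, 0.0178 with, and 0.0451 with array weights and no block). Tle1, a transcriptional corepressor, differed by -0.54 log2 (0.0627 without, 0.0231 with), and the fit without the block called it once sham 1 (0.00329) or sham 3 (0.0452) was left out, or with array weights (0.00542). Acot13, a mitochondrial thioesterase (-0.47 log2), Ppp1r13b, a partner of p53 (-0.37 log2), Ccl27, a chemokine (-0.43 log2), and Cby1, an antagonist of beta-catenin (-0.28 log2), had block-adjusted p between 0.0251 and 0.0487. Acot13 was also called without the block when sham 1 was left out (0.0297) and with array weights (0.0295). With any other single adult array left out, Tril, Tle1 and Acot13 were not called without the block, and Acot13 reached an adjusted p of 0.372.

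Dimmer probe sets of 4 further genes were lower in the block fit, and are named here after their values were seen. They belonged to Col4a1, a collagen of basement membranes (-0.67 log2, adjusted p = 0.0774 without and 0.0123 with the block), Fasn, the fatty acid synthase (-0.31 log2, 0.436 and 0.0127), Slc40a1, the iron exporter ferroportin (-0.41 log2, 0.101 and 0.0347), and Prdm2, a histone methyltransferase (-0.40 log2, 0.230 and 0.0122). All 6 same-numbered differences were negative in each of them. The brighter probe set of Col4a1 differed by -0.11 log2 (block-adjusted p = 0.778), so the 2 probe sets of this gene disagreed. The brightest probe sets of Fasn, Slc40a1 and Prdm2 were not called lower with the block either.

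**Figure D3:**
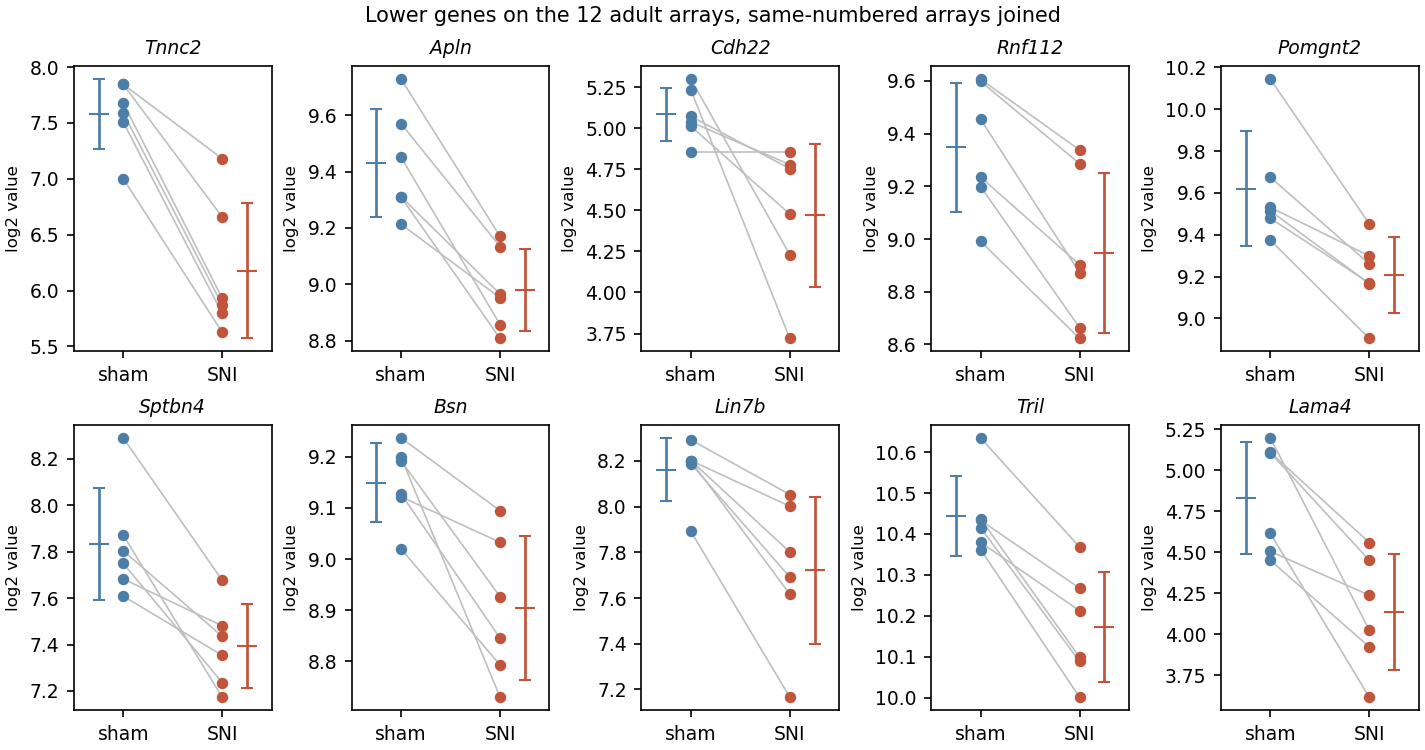
Log2 values of 10 genes lower after SNI on the 6 sham (blue) and 6 SNI (red) adult arrays, with grey lines joining same-numbered arrays and bars showing mean ± SD (n = 6). Tnnc2, Apln and Cdh22 (dimmer probe set) were called without the replicate block, and only in Apln do the groups not overlap. The other 7 genes were called with the block and, on all arrays with equal weights and the filter, not without it, and their grey lines all slope downward.

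Among lists of gene function, those of the lysosome and of actin held some of the modest rises, beside larger ones. In all, 20 of the 72 modest genes were in any list, against 711 of the 7006 genes tested. Of 28 lysosomal and endosomal genes 9 rose (8 with the block) and none fell, against 1.98% of all genes higher and 0.0285% lower. Their median difference was 0.12 log2, against -0.032 log2 over all genes. The risers were soluble enzymes and binding proteins: the cathepsins Ctsz (2.19 log2), Ctsh (1.15 log2), Ctss and Ctsc, with Lgmn, Npc2, Grn, Man2b1 (0.95 log2) and Gusb (0.40 log2, adjusted p = 0.0495, and 0.0522 with the block). Other bright members, among them subunits of the proton pump (Atp6v0c -0.05 log2, Atp6v1a -0.05 log2), the protease Ctsd (0.03 log2) and the membrane protein Lamp1 (-0.09 log2), were not called. Microglial markers moved with these lists: of 18 on the array 13 were tested and 12 rose, against 1.98% of all genes. Among adult arrays the SNI ones alone could admit a dim marker to the test. Irf8, for example, lay below the filter level on every adult sham array. The summed level of the 18 was 10.70 to 11.37 log2 in sham and 12.50 to 13.05 log2 after SNI. The part of these markers in the lysosomal, actin and modest rises was not tested.

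Of 23 genes of actin and leukocyte motility 6 rose and none fell, against 1.98% and 0.0285% of all genes, with a median of 0.21 log2. Arpc1b, a subunit of the Arp2/3 complex that branches actin, rose by 1.54 log2 (SE 0.27, adjusted p = 6.92e-04). Vasp, which extends actin filaments, rose by 0.68 log2 (adjusted p = 6.94e-04). The broadly expressed members Actg1 (-0.08 log2), Rac1 (0.01 log2) and Cdc42 (0.08 log2) were not called.

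Counts in the signalling lists were smaller, and are to be read against the 1.98% of all genes that rose. Of 22 genes of TGF beta, TNF and growth factor signalling 3 rose: Tgfbr1, a TGF beta receptor, by 0.87 log2 (SE 0.16, adjusted p = 0.00139), Nfkb1, a subunit of NF-kappa B, by 0.57 log2 (SE 0.11, adjusted p = 0.00238), and the TNF receptor Tnfrsf1a by 0.92 log2 (SE 0.18, adjusted p = 0.00272). Tgfbr1 had a second, dim probe set with a difference of 0.62 log2 (adjusted p = 0.647). Of 17 transmitter and purine receptors 2 rose, the purine receptors P2ry12 by 1.09 log2 (SE 0.20, adjusted p = 0.00166) and P2ry6, at least 1.66-fold higher since all its sham arrays lay below the filter level (adjusted p = 4.29e-04). For P2ry6, SNI 3 also lay below that level, at 3.77 log2. Among adult arrays only SNI ones could admit P2ry6 to the test, so its call is not independent of the filter. Plin2, which coats lipid droplets, rose by 0.92 log2 (SE 0.16, adjusted p = 4.55e-04), 1 of 13 genes of lipid transport. Nrp1, a receptor for semaphorins and VEGF, was the 1 of 34 axon guidance genes that rose, a share near that of all genes (1.20 log2, SE 0.29, adjusted p = 0.0233), and this call was lost without any one of sham 1, 2 and 3 or SNI 5 and 6 (adjusted p from 0.0528 to 0.0733) and with no filter (0.0630).

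A few astrocyte genes lay near the threshold of the test. Gfap ranged from 14.10 to 14.32 log2 in sham (median 14.25) and from 14.40 to 14.81 log2 after SNI (median 14.54). All 6 SNI arrays lay above all sham arrays, and the difference was 0.34 log2 (95% confidence interval 0.15 to 0.54) with an adjusted p of 0.0648. This became 0.0460 with the replicate block, 0.0374 with a variance trend, 0.0488 with centred arrays and 0.0473 without SNI 2. Without any other single adult array it stayed above 0.05, and reached 0.179. Fabp7, a fatty acid binding protein of astrocytes and their precursors, also had non-overlapping groups and a difference of 0.33 log2 (0.13 to 0.52, adjusted p = 0.0905). Cst3, a cysteine protease inhibitor secreted by astrocytes and microglia, differed by 0.33 log2 (adjusted p = 0.0958, and 0.0412 with the block).

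Most astrocyte genes differed little. Of 32 tested members 0 were called by limma without the block, near the share of all genes (1.98% higher and 0.0285% lower). At an unadjusted p under 0.05, 3 were higher and 1 lower, and the median was 0.02 log2. The block raised the count of called members to 2, Gfap and Cst3, against 2.67% of all genes higher in that fit. Slc1a3, a glutamate transporter, differed by 0.19 log2 (-0.04 to 0.42), the water channel Aqp4 by 0.19 log2 (-0.12 to 0.50) in its brightest probe set and the glutamine synthetase Glul by -0.05 log2 (-0.30 to 0.20). A dimmer probe set of Aqp4 differed by 0.52 log2 (adjusted p = 0.647, and 0.0167 with the block). Slc1a2, the other main glutamate transporter, was measured by a dim probe set only (sham median 5.35 log2) with an interval of -0.53 to 0.54.

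The list of reactive astrocyte genes had 5 of 14 members higher, against 1.98% of all genes (7 with the block, against 2.67%), and a median of 0.40 log2. The 5 were C3, Psmb8, Gbp2, Timp1 and Cp, which are also made by other cells: C3 is a complement protein, Psmb8 a subunit of the immunoproteasome, Gbp2 an interferon-induced GTPase, Timp1 an inhibitor of metalloproteases and Cp an iron oxidase. Gbp2 lay below the filter level on every adult sham array, so among adult arrays only SNI ones could admit it to the test. Vim and Nes, intermediate filaments of reactive astrocytes, differed by -0.21 and -0.10 log2 and were not called. Stat3, a transcription factor of cytokine signalling, differed by 0.46 log2 (adjusted p = 0.120, and 0.00643 with the block), while its dimmer probe set, named after its values were seen, rose by 0.92 log2 (adjusted p = 0.0246). That call was lost without any one of sham 1, 2 and 3 or SNI 2, 4, 5 and 6, up to an adjusted p of 0.0815. The part of the microglial markers, given above with the lysosomal list, in these values was not tested.

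Spp1 and Mt2A were called with the block and not in the fit of all arrays without it. Spp1, osteopontin, a secreted protein that microglia, motor neurons and macrophages make, ranged from 8.36 to 10.47 log2 in sham and from 9.43 to 11.19 log2 after SNI, and its difference of 1.00 log2 had an adjusted p of 0.397 without and 0.0125 with the block. Mt2A, a metal-binding metallothionein, differed by 0.87 log2 (0.0723 without, 0.00319 with), with all SNI arrays, at 10.10 log2 or more, above all sham arrays, at 9.89 log2 or less. Both were higher in all 6 same-numbered pairs, and Mt2A was called without the block only when SNI 5 was left out (0.0465). Both genes were chosen after their values were seen.

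Myelin genes showed no calls. Of 23 genes of oligodendrocytes and myelin, limma called 0, also with the block, and 0 at an unadjusted p under 0.05. Over all genes 1.98% were called higher and 0.0285% lower, so 0 calls in lists this short, here and below, is near that share. At an unadjusted p under 0.05 the shares of all genes were 4.92% higher and 2.83% lower. The median of the 23 was -0.01 log2. The interval was -0.15 to 0.19 log2 for Mbp and -0.23 to 0.24 log2 for the myelin protein Mog. Of 9 genes of oligodendrocyte precursors 0 were called, with 1 lower at an unadjusted p under 0.05. Pdgfra, the receptor that marks precursors, differed by 0.08 log2 (-0.22 to 0.38).

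Neuronal genes were bright, and most of their differences were small. Of 39 pan-neuronal and axonal genes limma called 0, with and without the block, while 1 was higher and 3 lower at an unadjusted p under 0.05. A count of 0 here is near the share of all genes called, 1.98% higher and 0.0285% lower. The list's median was -0.10 log2 and 32 of its members lay below 0, against 60.7% of all genes. The differences of its members ran from -0.274 to 0.811 log2. Snap25 differed by -0.06 log2 (-0.26 to 0.13), the neurofilament Nefl by -0.09 log2 (-0.42 to 0.24) and the tubulin Tubb3 by 0.06 log2 (-0.44 to 0.56). The members with the smallest p were Camk2b, a calcium-dependent kinase, at -0.24 log2 (-0.42 to -0.05, adjusted p = 0.350) and Syn2, a synapsin of synaptic vesicles, at -0.27 log2 (-0.50 to -0.05, adjusted p = 0.402). Gap43, a protein of growing axons, differed by 0.22 log2 (adjusted p = 0.568).

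Genes of inhibitory transmission gave no call in 21 tested members under either fit, and 0 at an unadjusted p under 0.05, with a median of -0.07 log2. In 21 genes, 0 calls is near the share of all genes called, 1.98% higher and 0.0285% lower. Slc12a5, the potassium chloride cotransporter KCC2 that keeps chloride low in neurons, ranged from 13.66 to 13.83 log2 in sham (median 13.75) and from 13.43 to 13.75 log2 after SNI (median 13.69). The groups overlapped, and the difference of -0.10 log2 had an interval of -0.26 to 0.06. Gad1, the enzyme that makes GABA, had an interval of -0.44 to 0.10 log2, and Slc32a1, which loads GABA and glycine into vesicles, one of -0.36 to 0.10 log2. The intervals of Gad2 (-0.79 to 0.76), the glycine transporter Slc6a5 (-0.97 to 1.60) and the glycine receptor Glra1 (-1.44 to 0.78) were too wide to bound a 1.5-fold change.

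Genes of excitatory transmission were not called. Slc17a6, the vesicular glutamate transporter of dorsal horn excitatory neurons, had an interval of -0.18 to 0.15 log2 around -0.01. The NMDA receptor subunit Grin1 differed by -0.24 log2 (-0.59 to 0.12) and the AMPA receptor subunit Gria1 by -0.09 log2 (-0.54 to 0.37). Limma called 0 of 27 genes of glutamatergic transmission, near the share of all genes (1.98% higher and 0.0285% lower). At an unadjusted p under 0.05, 1 of the 27 was lower. Dlg3, a postsynaptic scaffold, had the smallest p among them at -0.36 log2 (-0.65 to -0.08, adjusted p = 0.348).

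Ion channel genes had the lowest median of the neuronal lists, -0.13 log2 over 40 members, with 29 below 0. Limma called 0 of them, also with the block, and 4 were lower and 0 higher at an unadjusted p under 0.05, against 2.83% of all genes lower and 4.92% higher. Kcnk2, the leak potassium channel TREK-1, ranged from 5.61 to 5.98 log2 in sham (median 5.88) and from 5.29 to 5.62 log2 after SNI (median 5.56), a difference of -0.33 log2 (-0.60 to -0.07, adjusted p = 0.354). Cacna1b, the pore subunit of N-type calcium channels, differed by -0.32 log2 (-0.59 to -0.05, adjusted p = 0.451). Cacna2d1, the calcium channel subunit that binds gabapentin, differed by 0.10 log2 (-0.30 to 0.49).

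Of 31 genes of neuropeptides and their receptors 1 rose, Vgf, a share near the 1.98% of all genes, and 1 fell, Apln, with a median of -0.09 log2. Penk, Sst and Tac1, 3 peptides of dorsal horn neurons, were not called. Penk differed by -0.05 log2 (-0.30 to 0.19), the somatostatin gene Sst by -0.22 log2 (-0.52 to 0.08) and the substance P precursor Tac1 by 0.04 log2 (-0.34 to 0.41). Calca, the precursor of the peptide CGRP in sensory and motor neurons, had the largest difference of the list, 2.087 log2, with an interval of 0.02 to 4.15 and an adjusted p of 0.633. Genes of motor neurons varied more between arrays: their summed level was 13.96 to 14.92 log2 in sham and 13.99 to 14.70 log2 after SNI. The mean log2 value of the 8 tested varied further, from 6.1 (sham 2) to 9.1 (sham 4). After SNI it ran from 6.7 (SNI 1) to 8.9 (SNI 2). Of these 8 genes 0 were called without the block. The part of this spread in the values of Calca and Ret was not tested. Ret, a receptor for glial-derived growth factors found in motor and sensory neurons, differed by 0.61 log2 (adjusted p = 0.228, and 0.0256 with the block).

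**Figure D4:**
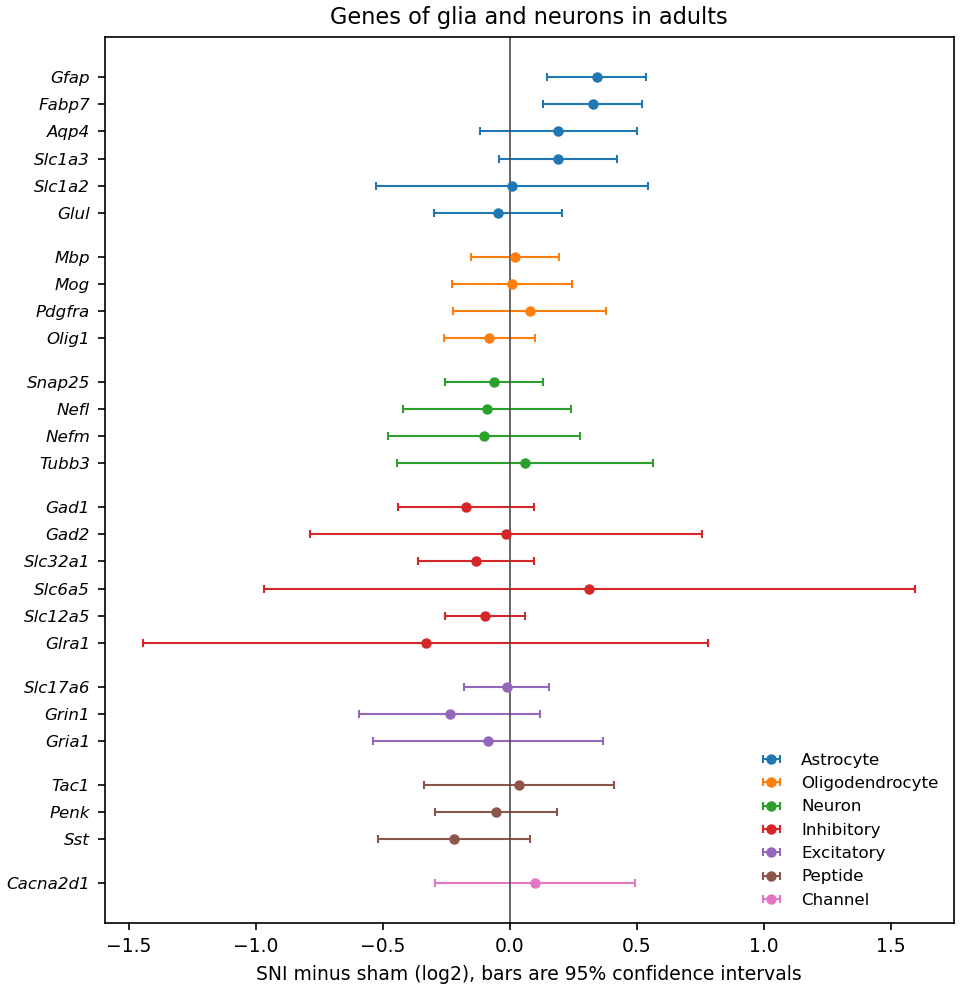
Difference between SNI and sham (log2) with 95% confidence intervals for genes of astrocytes, oligodendrocytes and neurons in adults. The intervals of Gfap and Fabp7 lie above 0, and those of the other genes shown include 0, with the widest at Glra1 and Slc6a5.

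Genes of energy supply and protein synthesis had small differences, nearly all on 1 side of 0. Of 57 genes of oxidative phosphorylation 56 lay below 0, with a median of -0.11 log2, while limma called 0 in either fit and only 1 was lower at an unadjusted p under 0.05. Sdhd, a subunit of succinate dehydrogenase, had the smallest p, with a difference of -0.20 log2 (-0.38 to -0.01, adjusted p = 0.549). Of 36 ribosomal protein genes 35 lay above 0, with a median of 0.11 log2, 0 called and 3 higher at an unadjusted p under 0.05. Rps9 differed by 0.28 log2 (0.08 to 0.48, adjusted p = 0.249) and Rpl5 by 0.26 log2 (0.08 to 0.43, adjusted p = 0.173). Genes of such a list move together from array to array, and a share of members on 1 side of 0 has no test here.

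Genes of cholesterol synthesis were not called. Of 19 cholesterol synthesis genes 18 lay below 0, with a median of -0.12 log2, 0 called and 1 lower at an unadjusted p under 0.05. The squalene synthase gene Fdft1 differed by -0.23 log2 (-0.42 to -0.03, adjusted p = 0.472, and 0.0616 with the block) and Fdps, which makes farnesyl diphosphate, by -0.25 log2 (-0.50 to 0.00, adjusted p = 0.647). Of 15 meningeal and fibroblast genes 0 were called and 12 lay below 0, led by the collagen Col4a2 at -0.46 log2 (-0.83 to -0.08, adjusted p = 0.408). Glycolysis (23 genes) and heat shock (23 genes) had 0 calls, with 1 lower and 0 changed at an unadjusted p under 0.05 respectively.

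**Figure D5:**
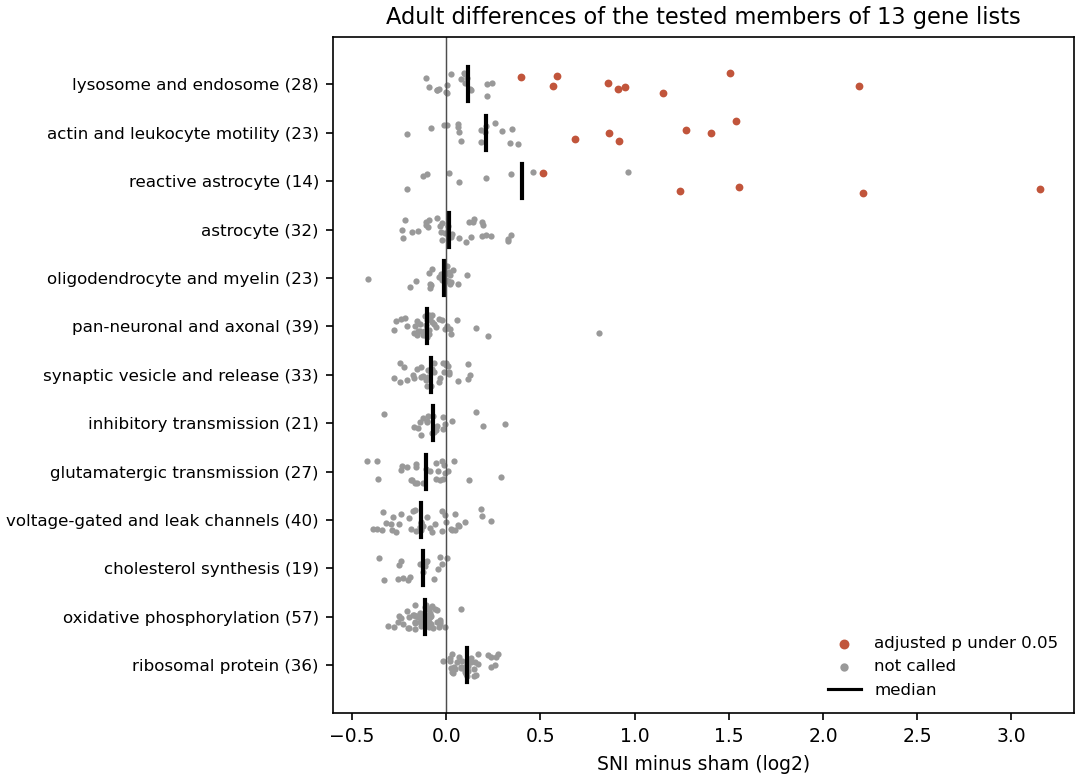
Differences between SNI and sham (log2) of the tested members of 13 gene lists in adults, with the number of genes in parentheses, red points for called genes and black bars for medians. Red points occur only in the lists of lysosome, actin and reactive astrocyte genes. The neuronal, cholesterol and oxidative phosphorylation lists have medians below 0, and the ribosomal list has one above 0.

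The size of the adult effect was set against the effect in neonates by the difference between them. Over all probe sets this difference was called for 22 (0.228% of those tested). Of the 72 modest genes 71 had the same sign in neonates, where 1 of them was called. The share of all genes with the same sign at both ages was not counted, so the 71 is no result about these genes. Grn rose by 1.51 log2 in adults and differed by 0.45 log2 in neonates (adjusted p of the difference between ages 0.00649). The neonate value was lower than the adult value, with a difference between ages that missed the threshold, for Skap2 (0.98 and 0.42 log2, adjusted p = 0.472), Npc2 (0.86 and 0.35 log2, adjusted p = 0.471) and Axl (0.84 and 0.30 log2, adjusted p = 0.887).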

How the data were processed

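Affymetrix Rat Expression 230A arrays measured the RNA. Per the submitters' processing notes GCRMA, which corrects background, normalizes and summarises probes, gave the values, and the authors deposited them as log2 per probe set. The version used and the probes' genome build are not given in the sources used here. Dim probe sets share near-identical low values, so fold changes that start there are uncertain.

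Of 15923 probe sets, 57 controls were removed. Of the other 15866, 12783 had 1 gene symbol in the platform annotation, 312 several and 2771 none, and 12748 were matched to RefSeq genes, which changed 0 symbols. Those above 3.84 log2 (the 40th percentile) on at least 6 of 24 arrays were tested, 9638 in all. A linear model with 4 group means was fitted to all 24 arrays in limma 3.58.1 (R 4.3.3; 20 residual degrees of freedom, prior 3.81), with two-sided p-values, Benjamini-Hochberg adjustment and a threshold of 0.05. The fit was checked on simulated data. A fold given as at least N sets the mean of the higher group against the filter level. Summed levels are log2 of summed unlogged values. Figures used matplotlib 3.10.9 in Python 3.11.15 with pandas 2.3.3.

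The brightest probe set represented a gene. Named were all lower probe sets, the 15 lowest p among genes lower with the block, the 12 modest (under 2-fold) and 12 brightest called genes, the 8 largest, up to 4 called members of each of 39 lists or the 2 of smallest p where none was called, and index genes. Other list members given by value were chosen after their values were seen. Members, lists and rules were chosen with earlier results of these data known.

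The labels number the replicates 1 to 6 in each group without saying what a number marks. Deviations from the group means correlated between same-numbered adult arrays at 0.371, 0.100, 0.559, 0.521, 0.221 and 0.509, against -0.072 on average for other numbers, and for 4 of 6 numbers the best match was the array of the same number. Every pair exceeded 0.1, the second only just (0.100), so the numbers were taken as pairs within an age and a fit with that block was run as an alternative. Other alternatives were the filter, the adult arrays alone, a common block, a variance trend, array weights, centring, a floor and leaving out each array.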

Additional observations from a re-analysis of the deposited data

Results flagged for a closer look

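Among 266 groups of 6 adult arrays of the named genes, 19 had an array far from the other 5, judged by its gap to the nearest array as a share of the group's range. Chance alone marks about 1 group in 20. In sham these were C3 on array 3 (6.47 log2), Psmb8 on array 3 (3.13), Lin7b on array 3 (7.89) and Ncam1 on array 3 (6.97), all low. Sham 4 was high for Hspa1a, a stress-induced chaperone (8.05 log2, the next array at 5.55), Tril (10.63) and Cxcl13 (2.24, near the lowest value of the arrays) and low for Tac1 (9.02). Sham 6 was high for Gad2 (8.90 log2) and the glycine transporter Slc6a5 (6.29, next 4.14) and low for Irf8 (2.92). Sham 1 was high for Cby1 (7.75 log2), Fcgr2b (2.43), Mbp (15.22) and Vgf (11.21). After SNI, C3 (10.43 log2) and Dlg1 (9.26) were low on array 5, Ptgds, a prostaglandin synthase of the meninges and choroid plexus, was low on array 3 (10.61), and P2ry12 was high on array 3 (8.30).

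The injury effect differed between adults and neonates in 10 of the 133 named results by the test of the difference (limma adjusted p). Over all tested probe sets the share was 0.228%. Many named genes were chosen for large or clear adult changes, which favours larger adult effects among them, so the count is not a result about them. On the log2 scale of the fit the adult effect was larger by 5.15 log2 for Cxcl13 (5.44e-10), 3.48 for Fcgr3a (2.43e-11), 2.42 for Fcgr2b (1.54e-07), 2.14 for Irf8 (2.39e-06) and 2.19 for Plac8 (0.0178). It was larger by 1.40 log2 for Rac2 and 1.08 for Cyba, parts of the phagocyte oxidase (8.65e-04 and 0.0453), 1.10 for the tetraspanin Cd53 (0.00649), 1.06 for Grn (0.00649) and 0.99 for the lysosomal reductase Ifi30 (0.0178). Cxcl13, Fcgr3a, Fcgr2b, Irf8 and Rac2 lay below the filter level on every adult sham array, so these sizes are not measured ones. The p-values of these genes rest on the same values, and the adult SNI arrays could admit such genes to the test. Against the filter level their adult rises were at least 10.8-fold, 4.35-fold, 2.70-fold, 3.40-fold and 2.31-fold.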

How the results depend on the processing

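The replicate block within each age moved the number of changed probe sets from 193 to 291, of lower ones from 5 to 27 and of modest ones from 108 to 204. A block common to both ages gave 297, 33 and 212, with 28 bright ones against 18. A filter at the 60th percentile left 106 changed, 102 higher, 67 modest and 6 with a difference between ages (22 before). Lower probe sets numbered 3 in the adult arrays alone and 15 with array weights. Leaving out 1 array gave 169 to 196 changed, 164 to 192 higher, 3 to 10 lower, 86 to 109 modest, 14 to 23 bright and 19 to 29 with a difference between ages. The lower count was 10 without SNI 1, 9 without sham 1, and 3 without sham 2 or sham 4.

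Some uncalled differences near 0 changed sign, so that their direction is not settled. With array weights Gad2 was at 0.11 and Slc17a6 at 0.0113 log2. Without single arrays the ranges in log2 were -0.11 to 0.19 for Slc1a2, -0.12 to 0.0231 for Glul, -0.0217 to 0.0659 for Mbp, -0.0438 to 0.0914 for Mog, -0.0161 to 0.14 for Pdgfra, -0.19 to 0.0052 for Nefm, -0.0899 to 0.25 for Tubb3, -0.26 to 0.19 for Gad2, -0.0277 to 0.69 for Slc6a5, -0.0548 to 0.0315 for Slc17a6, -0.14 to 0.13 for Tac1, -0.11 to 0.0142 for Penk, -0.22 to 0.0394 for Gria1 and -0.036 to 0.22 for Cacna2d1. Causes were not tested.

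Calls near the threshold, the lower genes above all, rest on single arrays and on whether numbers mark true pairs. Values near the lowest of the arrays hold little information on differences, and lists share genes.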
